A study of Sus scrofa with 6 samples.

Results

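JUN, ATF3, BTG2 and CYR61 are immediate early genes, whose transcription starts within minutes of a stimulus, without new protein synthesis, and whose mRNAs are mostly short-lived. JUN encodes a subunit of AP-1, a transcription factor dimer of the basic leucine zipper (bZIP) class, and ATF3 encodes a stress-induced bZIP factor that can pair with JUN. BTG2 encodes an antiproliferative protein that recruits the CCR4-NOT deadenylase, which shortens mRNA tails, and is a known p53 target. CYR61, now named CCN1, encodes a secreted matrix protein that signals through integrins and is a known target of the Hippo effectors YAP and TAZ. In the ovarian follicle such genes are known to respond to gonadotropin signals.

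The 4 genes were taken by symbol from the array's annotation. Each was represented by 1 probe, which gave 4 of 12258 probes and 4 of 9763 named genes. They were chosen by their measured log2 difference between the groups, a large decrease after maturation in earlier results of the same arrays, so their differences between the groups are a description here and carry no test. Expression was measured on 6 Affymetrix arrays. The 3 arrays after maturation held oocytes matured for 44 h at 38 °C under 5% CO2 in medium with 10% porcine follicular fluid, 2.5 IU/ml hCG and 2.5 IU/ml eCG, while enclosed in their cumulus cells, the somatic cells around the oocyte. The 3 arrays before maturation held oocytes of the same source that had not been cultured, which the sample titles call in vivo. Each array measured a pool of 50 oocytes of pubertal crossbred Landrace gilts, with 100 ng of total RNA amplified in 2 rounds. The design text also names a BCB dye test that sorted oocytes into 2 groups, and no sample label says which of these a pool holds. The labels call the pools biological replicates and do not give the animals behind each. Culture was given to the matured pools alone, and its effect and that of maturation cannot be told apart.

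Values are log2 expression levels, on which 1 unit is a 2-fold difference, and the median probe of each array lay between 5.62 and 5.70. The oocyte label was borne out by 17 oocyte markers, among them the growth factor genes GDF9 (11.06 ± 0.04 after and 11.01 ± 0.03 before maturation, SD, n = 3 each) and BMP15 (12.19 ± 0.01 after and 12.07 ± 0.04 before), and 0 of the 17 lay under the lower quartile of all 3 arrays in either group. Of the 17, 3 fell and 0 rose at a limma adjusted p under 0.05 (17.6% lower, against 8.07% of all probes). The receptor gene KIT fell by 1.22 (adjusted p = 0.00110), and the zona pellucida genes ZP3 by 0.70 (adjusted p = 0.0104) and ZP4 by 0.40 (adjusted p = 0.0343). ZP4 lost the call when any 1 array was left out (adjusted p = 0.0640 to 0.0972). Transcripts typical of cumulus and granulosa cells were also measured, such as the connexin 43 gene GJA1 (8.64 ± 0.17 after and 10.91 ± 0.18 before maturation). Arrays of a group correlated across probes at 0.994 to 0.995 after and 0.989 to 0.993 before maturation. One pool, replicate 1 before maturation, stood apart for JUN, BTG2, CYR61 and most other immediate early genes. Results that rest on it are given with and without it.

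JUN had log2 levels of 7.49, 7.08 and 7.63 in replicates 1, 2 and 3 after maturation, against 10.06, 9.17 and 9.31 in replicates 1, 2 and 3 before maturation. All 3 matured pools lay below all 3 pools before maturation, with 1.54 log2 units between the nearest arrays, and replicate 1 before maturation stood above the others. The group means were 7.40 ± 0.29 after and 9.52 ± 0.48 before maturation, a log2 difference of -2.12 (SE 0.24) or a 4.34-fold lower level after maturation. Of the 4 genes JUN had the smallest difference and the largest standard error.

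ATF3 had log2 levels of 5.93, 5.47 and 6.10 in replicates 1, 2 and 3 after maturation, against 8.84, 8.70 and 8.84 in replicates 1, 2 and 3 before maturation. The groups did not overlap, and the spread lay in the matured pools, where replicate 2 was lowest. The means were 5.83 ± 0.32 after and 8.79 ± 0.08 before maturation, a log2 difference of -2.96 (SE 0.16) or a 7.78-fold lower level. Its SD after maturation exceeded that of 96.6% of all probes, while its SD before maturation exceeded that of 25% of them.

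BTG2 had log2 levels of 6.003, 6.007 and 6.25 in replicates 1, 2 and 3 after maturation, against 10.29, 9.44 and 9.77 in replicates 1, 2 and 3 before maturation. The groups were separated by 3.19 log2 units at their nearest arrays, and the pools before maturation varied more than the matured ones. The means were 6.09 ± 0.14 after and 9.84 ± 0.43 before maturation, a log2 difference of -3.75 (SE 0.20) or a 13.4-fold lower level. Only 4 of the 9763 named genes had a larger measured decrease.

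CYR61 had log2 levels of 5.42, 5.64 and 5.29 in replicates 1, 2 and 3 after maturation, against 9.49, 8.84 and 8.92 in replicates 1, 2 and 3 before maturation. The nearest arrays of the groups lay 3.21 log2 units apart, and again replicate 1 was the highest pool before maturation. The means were 5.45 ± 0.17 after and 9.08 ± 0.35 before maturation, a log2 difference of -3.63 (SE 0.18) or a 12.4-fold lower level. Of the named genes 6 had a larger measured decrease.

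**Figure D1:**
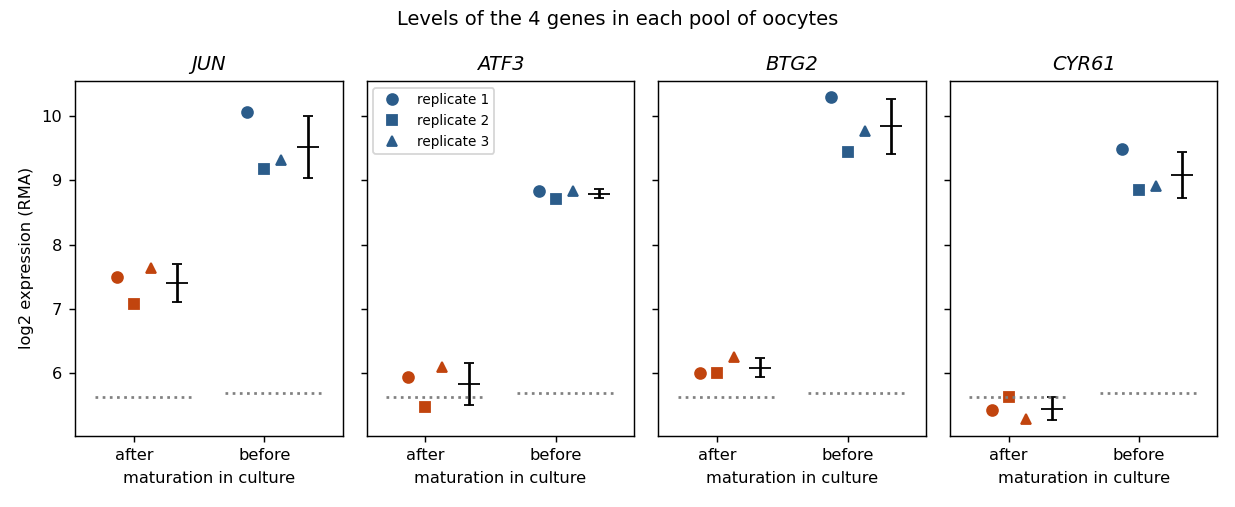
Log2 expression of JUN, ATF3, BTG2 and CYR61 in each pool after (left, orange) and before maturation (right, blue), with a marker shape for each replicate. Black bars give the group mean ± SD (n = 3), dotted grey lines give the mean of the array medians, and for each gene the matured pools lie below all pools before maturation.

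For 4 of the 4 genes every matured pool lay below every pool before maturation. Of all probes 14.4% showed this in the lower direction, and 8.07% were called lower at a limma adjusted p under 0.05. The genes were chosen for this contrast, so nothing is read from their count. Decreases made up 71.5% of all probes called, up to 83.8% with 1 array left out, 80.6% under cyclic loess, 76.8% with oocyte markers held level, 59.2% with quantile normalization repeated, 49.3% when arrays were set to one median and 4.69% when each array was scaled to equal ribosomal protein levels, which put the median probe at 0.60 in place of 0.08. In bulk RNA from pools, fewer cells of a type and less RNA per cell cannot be told apart. Detection above background was not assessed. The 4 genes lay 0.96 to 3.30 log2 units above the lower quartile of their array after maturation, and at least 4.41 above it before maturation. In the same-numbered pools the difference after minus before was -2.57, -2.10 and -1.68 for JUN in replicates 1, 2 and 3, and -2.91, -3.23 and -2.74 for ATF3. It was -4.29, -3.43 and -3.52 for BTG2 and -4.07, -3.21 and -3.62 for CYR61.

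**Figure D2:**
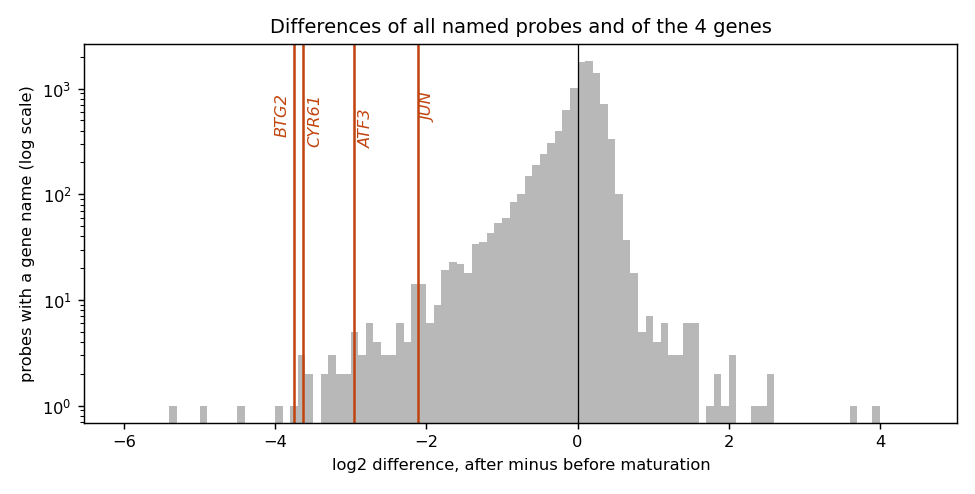
Number of named probes (log scale) by log2 difference, after minus before maturation, in bins of width 0.1. Orange lines mark the 4 genes, which lie between -3.75 for BTG2 and -2.12 for JUN, in the left tail of a distribution with a median of 0.08.

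Markers of cumulus and granulosa cells moved beside the 4 genes, more of them down than up. Of 23 such markers 12 fell and 5 rose at a limma adjusted p under 0.05, with a median log2 difference of -0.59. The shares of 52.2% lower and 21.7% higher stood against 8.07% and 3.21% of all probes. The marker lists, like the gene lists below, were drawn up with earlier results of these arrays known, so their shares are descriptions. Their summed level on the linear scale was 5286 to 5536 after maturation, against 8837 to 11931 before maturation, and 2 of the 23 after and 3 of the 23 before maturation lay under the lower quartile of all 3 arrays. HSD17B1 had the largest decrease of the 23, by 4.41 (adjusted p = 2.12e-05), more than any of the 4 genes. GJA1 fell by 2.27 (adjusted p = 2.45e-05) and SERPINE2, a protease inhibitor gene, fell by 2.92 (adjusted p = 8.94e-06), sizes near those of JUN and ATF3. HSD3B1, a gene of progesterone synthesis, rose by 3.95 (adjusted p = 1.49e-05). Their part in the levels of the 4 genes was not tested. Summed levels of oocyte markers were 30545 to 31873 after and 31864 to 34275 before maturation. Markers of theca and stroma had 1 of 13 genes called lower and 2 higher, those of endothelium 0 of 7 called either way, and those of leukocytes and erythroid cells 0 of 10 lower and 1 higher. At an unadjusted limma p under 0.05, which 13.4% of all probes passed as lower and 15.8% as higher, the endothelial list held 0 lower and 2 higher, KDR at 0.23 and SOX17 at 0.51, and the leukocyte list 0 lower and 5 higher. With the replicate number as a block SOX17 (adjusted p = 0.0369), the stromal gene DCN and the monocyte gene CD14 were also called higher.

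The pools before maturation differed among themselves in a pattern shared by JUN, BTG2 and CYR61, while ATF3 was nearly level. Replicate 1 was the highest and replicate 2 the lowest of the 3 pools for 4 of the 4 genes, an order found for 12.9% of all probes and for 16.3% of the probes called lower. This order within a group played no part in choosing the genes. Replicate 1 exceeded the mean of the other two pools by 0.82 for JUN, 0.68 for BTG2 and 0.61 for CYR61, and by 0.07 for ATF3. ATF3 differed by only 0.0026 between replicates 1 and 3, so its order is not resolved. Replicates 2 and 3 lay close for JUN (9.17 and 9.31) and CYR61 (8.84 and 8.92). These gaps were under the median difference of 0.154 between the same arrays over all probes, so which pool was lowest is not resolved for JUN and CYR61. The SDs before maturation of JUN, BTG2 and CYR61 exceeded those of 97.9%, 96.8% and 93.2% of all probes.

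Other immediate early genes showed the same pool as highest. Of 34 that were measured, 28 had replicate 1 as the highest pool before maturation (82.4%), against 34.9% of all probes and 22.1% of the probes called lower. Their median excess of replicate 1 over the mean of the other two pools was 0.55 on the log2 scale, against 0.0032 for all probes. BHLHE40, a circadian and stress-responsive repressor gene, had log2 levels of 8.96, 6.73 and 7.01 in replicates 1, 2 and 3 before maturation. TNFAIP3, an inhibitor of NF-kappaB signalling, had 6.54, 4.95 and 4.94 in the same pools, and ZFP36, which encodes a protein that destabilises mRNAs, had 11.22, 9.73 and 9.82. In these 3 genes, chosen after their values were seen, replicate 1 stood more than 1 log2 unit above both others. BHLHE40 (-1.38) and ZFP36 (-0.75) did not pass the test between the groups (adjusted p = 0.114 and 0.231), and with the replicate number as a block both were called lower (adjusted p = 0.0407 and 0.0261). BHLHE40 was also called lower without replicate 1 before maturation (adjusted p = 0.0279). Oocyte markers had replicate 1 highest for 8 of 17 (47.1%), with mean log2 levels of 10.23, 10.22 and 10.11 in replicates 1, 2 and 3. Cumulus and granulosa markers had another order, with replicate 1 highest for 7 of 23 (30.4%) and mean log2 levels of 7.06, 7.14 and 7.36 in replicates 1, 2 and 3. Probes called lower were most often highest in replicate 3 (65.3%).

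The matured pools shared no such order. Replicate 3 was the highest of them for JUN, ATF3 and BTG2 and the lowest for CYR61. Replicate 2 was the lowest for JUN and ATF3 and the highest for CYR61. The mean over the other immediate early genes was 7.52, 7.27 and 7.36 in replicates 1, 2 and 3 after maturation, against 8.29, 7.62 and 7.70 in replicates 1, 2 and 3 before maturation. Without replicate 1 before maturation the differences of the 4 genes were -1.84 for JUN, -2.94 for ATF3, -3.52 for BTG2 and -3.43 for CYR61.

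**Figure D3:**
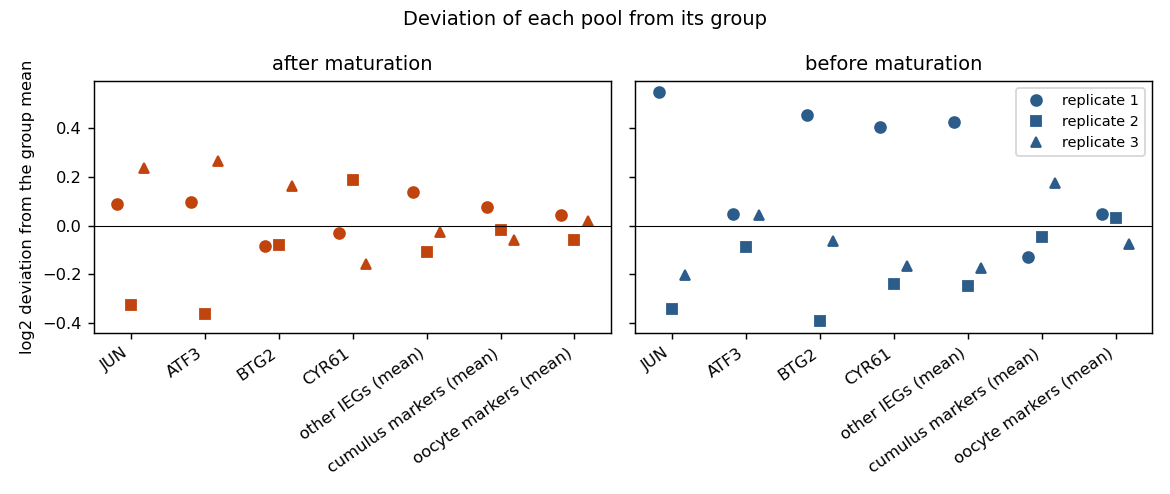
Log2 deviation of each pool from the mean of its group, after (left) and before maturation (right), for the 4 genes and for the mean of 34 other immediate early genes (IEGs), 23 cumulus and granulosa markers and 17 oocyte markers. Before maturation replicate 1 (circles) lies highest for JUN, BTG2, CYR61, the other immediate early genes and, by a small margin, the oocyte markers, and lowest for the cumulus and granulosa markers.

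BTG2 and CYR61 had the most similar profiles among the 4. Likeness was measured as the Euclidean distance between log2 profiles over the 6 arrays, each centred on its own mean, and it mostly reflects the size of the difference for which the genes were chosen. BTG2 and CYR61 lay 0.48 apart, and 0 of the other named genes lay closer to either. Of the named genes outside the 4, 102 lay closer to JUN and 44 closer to ATF3 than any of the 4 did. ATF3 lay 1.15 from BTG2, 1.17 from CYR61 and 1.20 from JUN, and JUN lay 1.98 from CYR61 and 2.03 from BTG2. The nearest genes outside the 4 were ID2, EDA and ITM2A for both BTG2 (0.73, 0.80 and 0.85) and CYR61 (0.60, 0.72 and 0.79). For ATF3 they were PTGFRN (0.31), CCND2 (0.32) and HTRA1 (0.43). For JUN they were ACTA2 (0.42), TIMP3 (0.50) and TGFBR3 (0.58). The 5 genes nearest to the mean profile of the 4 were HTRA1, GPRIN3, PTGFRN, SLC25A39 and CHRDL1, at 0.50 to 0.69.

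With all arrays and no block a minority of the other immediate early genes was called, mostly lower. Of 34 measured, 6 fell, 1 rose and 27 were not called, with a median log2 difference of -0.34 against 0.08 for all named genes. The share called lower was 17.6%, against 8.07% of all probes, and the share called higher was 2.94%, against 3.21%. At an unadjusted limma p under 0.05, 14 were lower and 5 higher (41.2% and 14.7%, against 13.4% and 15.8% of all probes). With the replicate number as a block 14 fell and 5 rose (41.2% and 14.7%, against 10% and 5.07% of all probes), the 6 and the 1 among them. Without replicate 1 before maturation 10 fell and 2 rose (29.4% and 5.88%, against 8.26% and 3.54% of all probes), again with the 6 among those that fell. No overlap between the groups was seen for 15 of the 34 in the lower direction and for 3 in the higher, against 14.4% and 21.7% of all probes. The list was drawn up with earlier results of these arrays known.

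Transcription factor genes gave 3 of these decreases. EGR2, a zinc finger factor gene, had log2 levels of 4.98, 3.98 and 4.18 in replicates 1, 2 and 3 after maturation, against 7.70, 6.20 and 7.02 in the pools before it, a difference of -2.60 (SE 0.38, adjusted p = 0.00366). The groups did not overlap, and 2 matured pools lay under the lower quartiles of their arrays (4.33 to 4.45), so the measured size is not exact. EGR1, the best known gene of that family, had 10.08, 9.72 and 9.84 after maturation, against 11.72, 10.97 and 11.19 before it, a difference of -1.41 (SE 0.19, adjusted p = 0.00248). The groups were separated in every pool. KLF10, a TGF-beta-inducible zinc finger gene, had 6.94, 6.78 and 6.93 after maturation, against 8.64, 7.88 and 8.04 before it, a difference of -1.30 (SE 0.18, adjusted p = 0.00324). In each of these 3 genes replicate 1 was the highest pool before maturation.

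The other decreases were in genes of survival, cytoskeletal and stress signalling. MCL1, which encodes a short-lived protein that restrains apoptosis, had log2 levels of 6.63, 6.29 and 6.85 after maturation, against 8.73, 8.19 and 8.95 before it, a difference of -2.03 (SE 0.21, adjusted p = 0.000640), and its highest pool before maturation was replicate 3. RHOB, a short-lived small GTPase gene, fell by 1.57 (adjusted p = 0.0174), and PPP1R15A, which encodes the stress-induced partner of the phosphatase that acts on eIF2 alpha, fell by 0.96 (adjusted p = 0.0209). Both lost the call when any 1 of the 3 matured pools was left out (adjusted p = 0.0563 to 0.0793). RHOB, PPP1R15A, DUSP4 and DUSP1 were named after their values were seen.

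DUSP4, a phosphatase gene that restrains MAP kinases, was the 1 gene called higher. It had log2 levels of 7.08, 6.18 and 6.67 in replicates 1, 2 and 3 after maturation, against 6.18, 5.16 and 5.19 before it, a difference of 1.13 (SE 0.31, adjusted p = 0.0497). Replicate 2 after maturation lay level with replicate 1 before it, and the call ended when any 1 of the matured pools, or replicate 2 or 3 before maturation, was left out (adjusted p = 0.0597 to 0.165), and under cyclic loess (adjusted p = 0.0575). DUSP1, another such phosphatase gene, had 8.21, 7.54 and 7.83 after maturation, against 10.14, 8.71 and 8.71 before it. Its difference of -1.33 (SE 0.37) did not pass the test (adjusted p = 0.0534), and it did with the replicate number as a block (adjusted p = 0.00356) and when replicate 1 before maturation was left out (-0.85, adjusted p = 0.0236), or replicate 3 before maturation (-1.56, adjusted p = 0.0479). FOS, JUNB and JUND were not matched by name and were not analysed here.

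**Figure D4:**
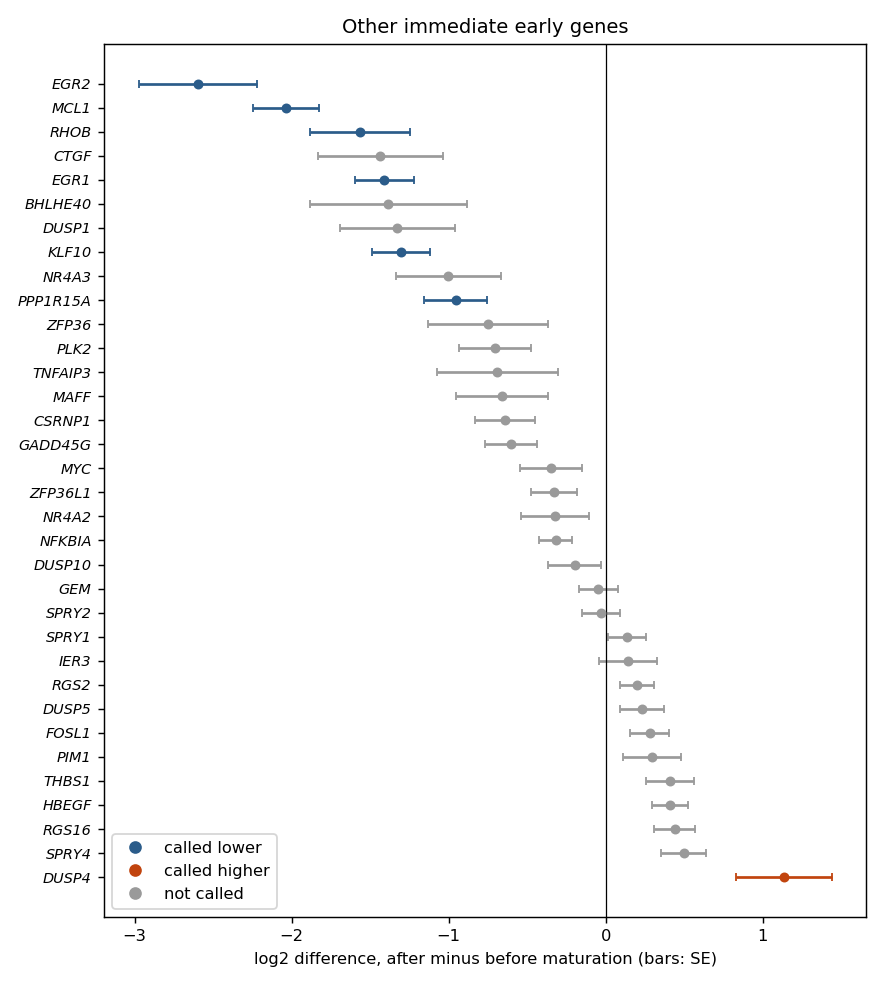
Log2 difference, after minus before maturation, with its standard error, for the 34 other immediate early genes, ordered by size. Blue points are the 6 genes called lower, the orange point is DUSP4, called higher, and grey points were not called.

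The bZIP genes, which encode possible partners of JUN and ATF3, did not pass the test with all arrays and no block. Of 20 measured, 0 were called in either direction with limma, against 8.07% of all probes called lower and 3.21% called higher, and their median difference was -0.04. At an unadjusted limma p under 0.05, 4 were lower (20% against 13.4% of all probes) and 2 higher (10% against 15.8%). ATF2, a partner of JUN, had a difference of -0.27 (adjusted p = 0.112), ATF4, the main factor of the integrated stress response, -0.10 (adjusted p = 0.474), and CREM, a cAMP-responsive factor gene, 0.11 (adjusted p = 0.550). Holding ribosomal protein genes level turned ATF2 and ATF4 to 0.24 and 0.42. CEBPD, an inducible factor gene of another bZIP family, had the smallest p of the list with a difference of -1.07 (adjusted p = 0.0725), and with the replicate number as a block it and NFE2L1 (-0.58) were called lower (adjusted p = 0.0120 and 0.0104) and ATF7 higher. CEBPD was also called without replicate 3 before maturation (adjusted p = 0.0354), without the dimmest 25% of probes (adjusted p = 0.0468) and with oocyte markers (adjusted p = 0.0208) or ribosomal protein genes (adjusted p = 0.0369) held level. NFE2L1 was called without replicate 2 before maturation (adjusted p = 0.0376) and with trend and robust variance (adjusted p = 0.0399), ATF7 without replicate 1 before maturation, and CREB1 lower under cyclic loess and with trend and robust variance. With ribosomal protein genes held level 13 of the 20 were called higher (65%, against 81.1% of all probes).

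Genes of the MAP kinase pathways that act on JUN mostly did not pass the test. Of 15 measured, MAP3K1 fell by 1.44 (adjusted p = 0.0144), RPS6KA2 rose by 0.48 (adjusted p = 0.0264) and 13 did not pass the test. The shares were 6.67% in each direction, against 8.07% lower and 3.21% higher over all probes. With the replicate number as a block 2 rose, RPS6KA2 and the transcription factor gene ELK1. MAPK8, the gene of the kinase JNK1 that phosphorylates JUN, had log2 levels of 10.19 ± 0.05 after and 9.98 ± 0.16 before maturation (adjusted p = 0.240). MAP3K1, a kinase gene upstream of JNK, had log2 levels of 4.78, 4.61 and 5.01 after maturation, against 5.82, 5.92 and 6.97 before it. Its highest pool before maturation was replicate 3, unlike JUN, and it lost the call without replicate 1 or 2 after maturation (adjusted p = 0.0667 and 0.0704). RPS6KA2 lost it without replicate 1 or 3 after and without replicate 2 or 3 before maturation (adjusted p = 0.0667 to 0.0992), under cyclic loess (adjusted p = 0.0886) and under repeated quantile normalization (adjusted p = 0.0675).

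Genes of the integrated stress response, in which ATF3 is a known target of ATF4, moved both ways. Of 20 measured, 7 fell, 4 rose and 9 were not called. The shares of 35% lower and 20% higher stood against 8.07% and 3.21% of all probes. The endoplasmic reticulum stress genes XBP1 and HSPA5 fell by 1.54 and 0.99 (adjusted p = 0.000548 and 0.00248), and the eIF2 alpha kinase gene EIF2AK3 fell by 1.26 (adjusted p = 0.00432). TRIB3, a pseudokinase gene induced by ATF4, rose by 1.01, with log2 levels of 6.34, 6.39 and 6.32 in replicates 1, 2 and 3 after maturation, against 5.25, 5.50 and 5.29 before it (SE 0.10, adjusted p = 0.000510). All matured pools lay above all pools before maturation for TRIB3, the reverse of ATF3. With 1 array left out XBP1, HSPA5, EIF2AK3 and TRIB3 kept their calls, but 4 genes fell without replicate 1 after maturation, 3 of the 7 and DDIT4, and 3 fell without replicate 2 after maturation. Calls of higher genes were 2 without replicate 1 or 3 after and without replicate 2 or 3 before maturation.

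**Figure D5:**
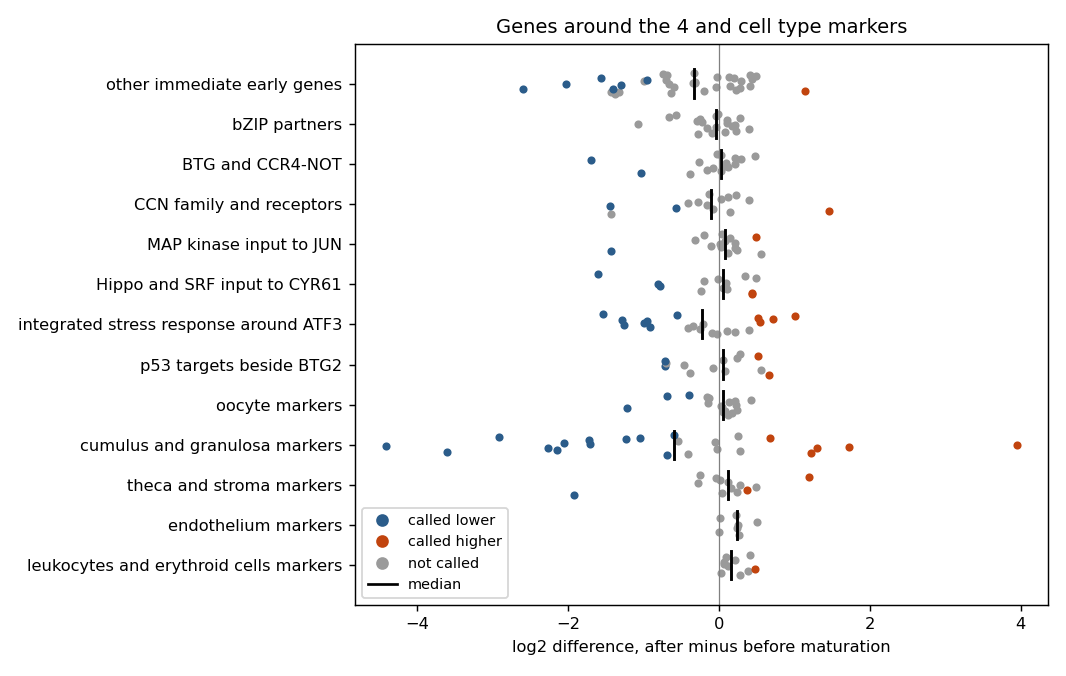
Log2 difference, after minus before maturation, of each measured gene in 8 gene lists around the 4 genes and in 5 lists of cell type markers, with blue for genes called lower, orange for genes called higher and grey for the rest. Black bars are list medians, which run from -0.59 for cumulus and granulosa markers and -0.34 for the other immediate early genes to 0.23 for endothelial markers.

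Relatives of BTG2 and the deadenylase it recruits mostly did not pass the test. Of 16 measured, 2 fell, 0 rose and 14 were not called. The shares of 12.5% lower and 0% higher stood against 8.07% and 3.21% of all probes. At an unadjusted limma p under 0.05, 4 were lower and 2 higher (25% and 12.5%, against 13.4% and 15.8% of all probes). BTG3 had log2 levels of 4.84, 4.61 and 4.85 after maturation, against 5.57, 5.45 and 6.42 before it, and fell by 1.04 (adjusted p = 0.0256), a call lost when any 1 matured pool was left out (adjusted p = 0.0634 to 0.104). PABPC1, the gene of the main cytoplasmic poly(A)-binding protein, fell by 1.70 (adjusted p = 0.000406). BTG1, the closest relative of BTG2, had a difference of -0.39 (adjusted p = 0.0531), which passed the test with the replicate number as a block (adjusted p = 0.0394) and under cyclic loess (adjusted p = 0.0431) and turned to 0.13 with ribosomal protein genes held level. BTG4, the member of the family known for its role in oocytes, had log2 levels of 11.69 ± 0.03 after and 11.66 ± 0.03 before maturation (adjusted p = 0.839). TOB1 had 9.75 ± 0.02 after and 9.77 ± 0.04 before maturation (adjusted p = 0.876). Under the ribosomal protein scaling BTG4 and TOB1 had values of 0.54 and 0.49 and were called higher, and BTG4 had -0.06 with cyclic loess.

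Targets of p53 other than BTG2 gave 2 lower and 2 higher calls of 13 measured, with a median of 0.05. The shares were 15.4% in each direction, against 8.07% lower and 3.21% higher over all probes. FAS, a death receptor gene, fell by 0.72 (adjusted p = 0.00290) and POLH, a DNA polymerase gene, fell by 0.72 (adjusted p = 0.0243), while AEN, a nuclease gene, rose by 0.66 (adjusted p = 0.0106) and SESN2, a stress-induced gene, by 0.52 (adjusted p = 0.0451). With 1 array left out AEN lost its call once (adjusted p = 0.0560, replicate 1 after maturation), POLH 4 times (adjusted p = 0.0502 to 0.0920) and SESN2 4 times (adjusted p = 0.0987 to 0.151). With the replicate number as a block 5 fell, with BTG1, MDM2 and PLK2 added (38.5%, against 10% of all probes). With ribosomal protein genes held level 0 fell and 8 rose (61.5%), against 3.99% and 81.1% of all probes.

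Relatives and receptors of CYR61 moved both ways. Of 14 measured, 2 fell, 1 rose and 11 were not called. The shares of 14.3% lower and 7.14% higher stood against 8.07% and 3.21% of all probes. CTGF, the closest relative of CYR61 and like it a target of YAP and TAZ, had log2 levels of 8.65, 7.76 and 6.97 in replicates 1, 2 and 3 after maturation, against 9.77, 8.86 and 9.05 before it. The groups did not overlap, but the matured pools ranged over more than 1 log2 unit, and the difference of -1.44 (SE 0.40) did not pass the test (adjusted p = 0.0542), while it did with the replicate number as a block (adjusted p = 0.00285) and without replicate 1 after maturation (-1.86, adjusted p = 0.0220). Replicate 1 was the highest pool for CTGF in both groups. NOV, a CCN gene with 4.77 ± 0.20 after and 4.37 ± 0.25 before maturation, lay near the lower quartile of the arrays (adjusted p = 0.136). Among the integrin genes ITGB1 fell by 1.45 (adjusted p = 0.00159) and ITGAV fell by 0.57 (adjusted p = 0.0435), a call lost under 4 of the 5 other scalings and without 5 of the 6 arrays. ITGA5, which encodes a fibronectin receptor subunit, rose by 1.45, with log2 levels of 6.42, 5.99 and 6.29 after maturation, against 5.13, 4.65 and 4.57 before it (adjusted p = 0.00126).

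Genes of the Hippo pathway, which acts on CYR61, had 3 lower and 2 higher calls of 13 measured. The shares of 23.1% and 15.4% stood against 8.07% and 3.21% of all probes. With the replicate number as a block TEAD3 was also called higher. The genes SRF, MRTFA and MRTFB of the same list were not matched by name and were not analysed here. WWTR1, the gene of TAZ, had log2 levels of 5.28, 5.32 and 5.26 in replicates 1, 2 and 3 after maturation, against 7.07, 6.71 and 6.92 before it, a difference of -1.61 (SE 0.11, adjusted p = 6.98e-05). The matured pools differed by less than 0.1, and replicate 1 was the highest and replicate 2 the lowest pool before maturation, as for CYR61. For CYR61 replicates 2 and 3 lay close (8.84 and 8.92). YAP1 was not matched by name and was not analysed here. MOB1A, named after its values were seen, and MOB1B, which encode cofactors of the LATS kinases, fell by 0.79 and 0.82 (adjusted p = 0.0389 and 0.00110), and the angiomotin genes AMOT and AMOTL1 each rose by 0.43 (adjusted p = 0.0342 and 0.0245). Neither MOB1 gene was called with ribosomal protein genes held level, and MOB1A, AMOT and AMOTL1 were not called when replicate 1 after maturation or any of several other arrays was left out.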

How the data were processed

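Expression of porcine oocyte pools was measured on 1-colour Affymetrix arrays. The deposited table holds log2 values made by the authors with RMA, per the submitters' processing notes. No source used here gives the RMA version, its options or a probe filter, and the log2 scale was judged from the values and from what RMA usually returns. Background and scan batches could not be examined, since scanner files were not used here.

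Gene names came from the platform annotation and were brought up to date by gene ID with RefSeq names of assembly Sscrofa11.1. Of 12258 probes 10848 had 1 symbol, 342 several and 1068 none listed, and the brightest probe stood for each of 9763 named genes. The difference after minus before maturation was fitted for every probe with limma (version 3.58.1, R 4.3.3; lmFit, then eBayes), and two-sided p-values were adjusted by Benjamini-Hochberg across the whole array, with calls made under 0.05. Lists are described by counts and medians. They matched 34 of 65 other immediate early genes, 20 of 35 bZIP genes, 16 of 24 BTG and CCR4-NOT genes, 14 of 17 CCN and receptor genes, 15 of 35 MAP kinase genes, 13 of 22 Hippo and SRF genes, 20 of 27 stress response genes and 13 of 24 p53 targets, with 11 genes in more than 1 list. The members, lists and alternatives were chosen with earlier results of these data known. The text names the 4 genes, up to 4 called genes per list with the smallest p (the 2 smallest where fewer than 2 were called), a fixed set of relatives and the nearest profiles, and says where others were added.

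Deviations from the group means correlated at 0.283, 0.120 and 0.142 between same-numbered arrays, and at -0.168 to 0.0191 between differently numbered ones. Deviations of 3 arrays from their own mean cancel out, so these correlations depend on one another and cannot establish a pairing. No label gives a shared origin of same-numbered arrays. The main fit had no block, and the blocked fit is an alternative. Results of the blocked fit appear where a call of a named gene or a count changed. Replicates differed by a median of 0.125 to 0.168 and none copied another. Only 3 arrays per group limit the precision. The limma p-values set each difference against the spread between these pools, moderated over all probes. The animals behind each pool are not given. With 3 arrays against 3 the smallest two-sided p of an exact permutation test is 0.1.

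Tested on simulated data of 12258 probes for this comparison, the fit called 40 of 40 probes at a log2 change of -2, 39 of 40 at -1, 40 of 40 at 1, 15 of 40 at -0.5, 12 of 40 at 0.5, and 4 of 12058 unchanged ones. The simulated noise was normal and independent between probes, with each probe's moderated variance from the fit. It held no pool effect shared by genes and fewer changed probes than were called in the data. These rates need not hold for the real arrays. Alternatives were the replicate block, 5 scalings, a filter on the dimmest 25% of probes, trend and robust variance, the mean of a gene's probes and leaving out each array. Tables and figures were made with Python 3.11.15, pandas 2.3.3 and matplotlib 3.10.9.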

Additional observations from a re-analysis of the deposited data

How the results depend on the processing

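The 4 genes stayed lower after maturation under all 15 alternatives. Leaving out each array gave log2 differences of -2.29 to -1.84 for JUN, -3.09 to -2.78 for ATF3, -3.95 to -3.52 for BTG2 and -3.75 to -3.43 for CYR61. With ribosomal protein genes held level, which by construction shifts every probe, they were -1.60, -2.44, -3.23 and -3.12, and the other alternatives moved them by less than the SD between replicates. Of the other immediate early genes 6 were called lower, 14 with the replicate number as a block, 11 with oocyte markers held level, 10 without the dimmest 25% of probes and 4 to 10 with 1 array left out (10 without replicate 1 before maturation). Over all probes the shares called lower were 8.07%, 10%, 7.37%, 11.2% and 4.33% to 8.26% in the same order. The filter left 9193 probes to adjust over, and the cause of these changes was not tested. Of all probes 394 were called higher, 621 with the block, 915 when arrays were set to one median, 254 under cyclic loess, 596 with quantile normalization repeated, 9936 with ribosomal protein genes held level and 103 to 434 with 1 array left out, where omitting the matured replicates 1, 2 and 3 gave 103, 119 and 204, and omitting replicates 2 and 3 before maturation gave 258 and 166. Of all probes 989 were called lower, 489 with ribosomal protein genes held level and 531 to 1013 with 1 array left out, with 531 and 545 when the matured replicates 1 and 2 were omitted. Signs turned with ribosomal protein genes held level for ATF2 (0.24), ATF4 (0.42), BTG1 (0.13), TOB1 (0.49) and ZP4 (0.11), with cyclic loess for BTG4 (-0.056) and GDF9 (-0.020), and for TOB1 also with one median for all arrays (0.034) and with 1 array left out (-0.035 to 0.0017, the highest without replicate 1 before maturation). Of 50 named genes that were called, 29 were called under every alternative that could test them and 18 lost the call without some single array. Of 375 recomputed counts of the lists other than the decreases of immediate early genes, 104 moved by over 1.5 times. DUSP1 and CTGF, just over the threshold, were also called lower with oocyte markers held level (adjusted p = 0.0104 and 0.0100), without the dimmest probes (adjusted p = 0.0316 and 0.0318) and with trend and robust variance (adjusted p = 0.0457 and 0.0459). The block changed no call of a gene in the lists beyond those given above and those of CSRNP1, GADD45G, NR4A3 and PLK2 (lower) and HBEGF, RGS16, SPRY4 and THBS1 (higher) among the immediate early genes. Dim probes limit EGR2 and NOV, whose levels after or before maturation lay near or under the lower quartile of their arrays (4.27 to 4.45). The same limit holds for KDR (3.43 to 3.72) and CREB1 (3.36 to 3.66), which lay under it on every array. It also holds for ITM2A in the matured pools (3.44 to 3.74) and ACTA2 in replicate 2 after maturation (4.12). Among others near or under the lower quartile were HSD3B1 (4.11 to 4.34) and RPS6KA2 (4.43 to 4.54) before maturation. After maturation GPRIN3 (4.42 to 4.73), BTG3 (4.61 to 4.85) and MAP3K1 (4.61 to 5.01) lay near it. Of 10 leukocyte and erythroid markers 4 lay under it on all 3 arrays of each group.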

Other observations

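Replicate 1 before maturation was the highest of its 3 pools for some neighbouring gene groups as well. It was so for 9 of 14 genes of the CCN family and its receptors (64.3%), 8 of 13 theca and stroma markers (61.5%) and 11 of 20 bZIP genes (55.0%), against 34.9% of all probes. For the integrated stress response it was so for 6 of 20 genes (30.0%) and for the Hippo genes for 4 of 13 (30.8%). The summed linear level of the theca and stroma markers was 747, 615 and 596 in replicates 1, 2 and 3 before maturation. That of the cumulus and granulosa markers was 8837, 9470 and 11931 in the same pools, so the pool with the highest immediate early genes had the lowest sum of cumulus and granulosa markers. The summed level of oocyte markers was 34275, 33565 and 31864 in replicates 1, 2 and 3 before maturation, highest in the same pool. Replicate 3 before maturation lay above replicate 2 for the cumulus and granulosa sum and for the other immediate early genes (mean 7.70 against 7.62). Only replicate 1 thus stood opposite, and the matured pools did not repeat this for the other immediate early genes. Their mean (7.52) and the cumulus and granulosa sum (5536) were both highest in replicate 1 after maturation. The mean of the 4 genes was highest in replicate 3 after maturation (6.32), where that sum was lowest (5286). With 3 pools per group these orders are descriptions and were not tested.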
